A study of Mus musculus with 4 samples.

Results

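The 10 genes described here encode heat shock proteins of the cytosol and the mitochondrion: Hspa1a, Hspa1b, Hspa8, Hsp90aa1, Hsp90ab1, Hsph1, Dnajb1, Hspb1, Hspd1 and Hspe1. They were taken by gene symbol, and all 10 were found among the 25124 symbols listed and reached the level needed for testing (a mean of at least 25.8 normalised reads). The cells were airway epithelial cells sorted by flow cytometry from lungs of wild-type C57BL/6 mice, and every mouse had been sensitised with house dust mite (HDM), an allergen that inflames the airways. The tested samples came from mice given an inhibitor of stearoyl-CoA desaturase 1 (SCD1), which turns saturated into monounsaturated fatty acids, and the others from mice given dimethyl sulfoxide (DMSO), the vehicle. Each group held 2 samples. The sources used here do not give the inhibitor's name or dose, the animals' age, or whether samples came from separate animals, so p-values measure only the spread between these samples, which may be technical. Values are normalised reads, which are read counts per gene divided by a size factor for the library. The 4 libraries held 24591122 to 27013663 reads assigned to genes.

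Heat shock proteins are molecular chaperones, which bind unfolded or partly folded proteins, keep them from aggregating and help them to fold. HSP70 proteins work in cycles driven by ATP, started by J-domain partners and reset by nucleotide exchange factors, and pass clients such as kinases and steroid receptors to HSP90. Hspa8 and Hsp90ab1 are made at a high level in most cells, whereas Hspa1a, Hspa1b, Hsp90aa1, Hsph1, Dnajb1 and Hspb1 are induced by heat, oxidants and other stress through heat shock factor 1 (HSF1). HSF1 binds heat shock elements, in which GAA units alternate with their complement TTC, each 2 bases from the next.

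The transcripts did not move as a group. The stress-inducible HSP70 genes Hspa1a and Hspa1b fell with the SCD1 inhibitor, to 2.12-fold less when summed, and Hsp90aa1, the inducible HSP90, rose 1.55-fold. These 3 of the 10 passed limma's test over all genes at an adjusted p under 0.05, where 1.79% of the 13810 genes tested did. Higher calls were 1 of 10, against 1.36% of all genes, and lower calls were 2 of 10, against 0.427%. The 2 lower calls are near-identical copies that may share reads, so they do not count as separate results. The 10 genes were chosen with earlier results of these data known, so these shares are a description. The median log2 fold change of the 10 was 0.0016, beside 0.0056 over all tested genes. The calls depended on the method: the same 3 genes passed with DESeq2, and none passed with edgeR or after a correction for GC content.

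The promoters are shown first because the 2 genes that fell have almost the same one and because a pair of the mitochondrial genes share one. Each window runs from 250 bases before to 50 bases after the start of transcription, from RefSeq on GRCm38.p6, which is mm10, and is written 5′ to 3′ on the gene's own strand. Windows were found for 7 of the 10 genes. Capitals mark an element of 3 or more alternating units, searched on both strands, which was found in the windows of Hspe1, Hspd1 and Hsph1. Only units with the exact letters GAA or TTC were counted, so an element with a changed base is not marked. Of 32851 windows in the table, 198 held such an element (0.603%). Hspe1 lies at chr1:55087898-55088197 on the plus strand, Hspd1 at chr1:55087883-55088182 on the minus strand and Hsph1 at chr5:149636266-149636565 on the minus strand.
Hspe1: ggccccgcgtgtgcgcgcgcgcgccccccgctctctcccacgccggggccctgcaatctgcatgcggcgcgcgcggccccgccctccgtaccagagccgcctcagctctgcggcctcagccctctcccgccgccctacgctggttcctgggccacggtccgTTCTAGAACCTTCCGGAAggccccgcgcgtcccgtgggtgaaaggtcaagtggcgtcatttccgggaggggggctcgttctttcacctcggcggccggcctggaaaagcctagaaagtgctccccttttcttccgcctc
Hspd1: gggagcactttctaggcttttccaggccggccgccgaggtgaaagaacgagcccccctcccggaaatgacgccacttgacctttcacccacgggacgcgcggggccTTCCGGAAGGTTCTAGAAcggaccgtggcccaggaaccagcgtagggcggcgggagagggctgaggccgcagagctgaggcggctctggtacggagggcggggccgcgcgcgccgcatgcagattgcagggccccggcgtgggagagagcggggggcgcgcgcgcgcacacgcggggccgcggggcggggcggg
Hsph1: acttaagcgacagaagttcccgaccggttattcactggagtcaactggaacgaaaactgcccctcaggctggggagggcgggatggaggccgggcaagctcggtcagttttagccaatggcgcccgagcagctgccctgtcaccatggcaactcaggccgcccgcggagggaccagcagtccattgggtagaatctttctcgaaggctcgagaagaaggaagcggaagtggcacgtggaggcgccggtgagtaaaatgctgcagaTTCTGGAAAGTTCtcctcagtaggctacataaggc

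The windows of Hspe1 and Hspd1 overlap on opposite strands of chromosome 1, so their 18-base element is a single one, centred at position -81 from the start site of Hspe1 and -136 from that of Hspd1. The Hsph1 window is 1 of 2 that overlap and hold the same element, which spans 13 bases and is centred 21 bases after this start site. In the windows of Hspa1a (chr17:34972107-34972406, minus strand) and Hspa1b (chr17:34959189-34959488, minus strand) capitals mark the shorter match GAANNTTC. That match, or its counterpart TTCNNGAA, was present in 15.1% of all windows.
Hspa1a: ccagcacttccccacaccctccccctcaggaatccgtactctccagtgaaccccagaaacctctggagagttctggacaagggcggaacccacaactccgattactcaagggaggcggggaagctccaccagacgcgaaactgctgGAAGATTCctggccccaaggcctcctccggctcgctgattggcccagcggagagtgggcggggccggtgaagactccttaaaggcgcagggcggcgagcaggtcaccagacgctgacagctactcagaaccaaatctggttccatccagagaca
Hspa1b: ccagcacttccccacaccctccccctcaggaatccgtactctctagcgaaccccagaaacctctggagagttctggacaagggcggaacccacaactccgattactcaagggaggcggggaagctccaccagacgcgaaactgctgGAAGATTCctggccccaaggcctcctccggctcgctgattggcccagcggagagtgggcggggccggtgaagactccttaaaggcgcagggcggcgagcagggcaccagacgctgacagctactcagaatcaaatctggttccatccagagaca

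The Hspa1a and Hspa1b windows were identical at 296 of 300 bases. A second Hspd1 window and the windows of Dnajb1 and Hspb1 held no exact element of 3 units, and windows were not used here for Hspa8, Hsp90aa1 and Hsp90ab1. These matches describe the letters of the windows and no binding of HSF1 was measured.

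Hspa1a and Hspa1b encode the inducible cytosolic HSP70, which is nearly absent from many unstressed cells. Hspa1a had 278 and 449 normalised reads in the SCD1 inhibitor libraries, against 1054 and 732 in the DMSO libraries. Hspa1b had 624 and 652 with the inhibitor, against 1358 and 1173 with DMSO. Both inhibitor libraries lay below both DMSO libraries for each gene. The log2 fold change was -1.25 ± 0.29 for Hspa1a (SE, limma adjusted p = 0.0473) and -0.96 ± 0.20 for Hspa1b (limma adjusted p = 0.0315).

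The genes (Hspa1a at chromosome 17, 34969190 to 34972156, and Hspa1b at 34956436 to 34959238, both on the minus strand) are near-identical copies. Of all 50-base stretches of the Hspa1a transcript, 58.8% also occur in Hspa1b, and 62.3% of those of Hspa1b occur in Hspa1a, so the division of reads between them is uncertain. Their sum does not depend on that division, though 7.95% of the Hspa1a stretches also occur in Hspa1l. The sum was 902 and 1101 normalised reads in the SCD1 inhibitor libraries, against 2411 and 1906 in the DMSO libraries, a log2 fold change of -1.09 ± 0.18 (SE, limma adjusted p = 0.0108). Hspa1a made up 30.8% and 40.8% of the sum with the inhibitor, against 43.7% and 38.4% with DMSO, and these shares overlapped. Hspa1a also shares 564 exon bases with Gm20481 on the opposite strand. Hspa1l, a related HSP70 gene known mainly from testis, was named after its values were seen and had 43.0 and 98.6 reads with the inhibitor, against 197 and 116 with DMSO (log2 fold change -0.94, limma adjusted p = 0.440).

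In bulk samples fewer cells of a type and less RNA per cell cannot be told apart, and cell type markers moved with the groups. Of 9 goblet cell markers 6 fell in limma's test, where 0.427% of all tested genes did. With edgeR 3 passed, where 0.304% of all genes did in either direction, and with DESeq2 6, where 6.10% did. All 9 had both inhibitor libraries below both DMSO libraries, where 22.2% of all tested genes had, with a summed level of 19181 and 37199.5 normalised reads in inhibitor libraries, against 106532 and 80974 in DMSO libraries. Of 10 club cell markers 5 fell in limma's test (1 passed with edgeR and 5 with DESeq2), and the 10 summed to 636658 and 429895 with the inhibitor, against 731900.0 and 631469 with DMSO. Of 10 markers of alveolar type 2 cells 5 fell in limma's test (none passed with edgeR and 8 with DESeq2), with sums of 329454 and 272781 with the inhibitor, against 421757 and 478237 with DMSO. The 7 basal cell markers summed to 923 and 3084 with the inhibitor, against 5244 and 3898 with DMSO, with Krt14 at 0 in 3 libraries. The 10 ciliated cell markers summed to 522581 and 540491 with the inhibitor, against 512496 and 520358 with DMSO. Of these 10, 7 were positive and 1 rose in limma's test, where 1.36% of all tested genes did (1 passed with edgeR and 2 with DESeq2). The 8 markers of alveolar type 1 cells summed to 17410 and 17623 with the inhibitor, against 19345.5 and 20929 with DMSO. Of the 7 tested, 1 fell in limma's test (none passed with edgeR and 2 with DESeq2). The 8 markers of fibroblasts and smooth muscle all had a positive log2 fold change, with a median of 0.69, and none passed limma's test (3 at an unadjusted p under 0.05). They summed to 5463 and 4758 with the inhibitor, against 2252.5 and 5377 with DMSO. The part of these shifts in the HSP70 result was not tested.

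**Figure D1:**
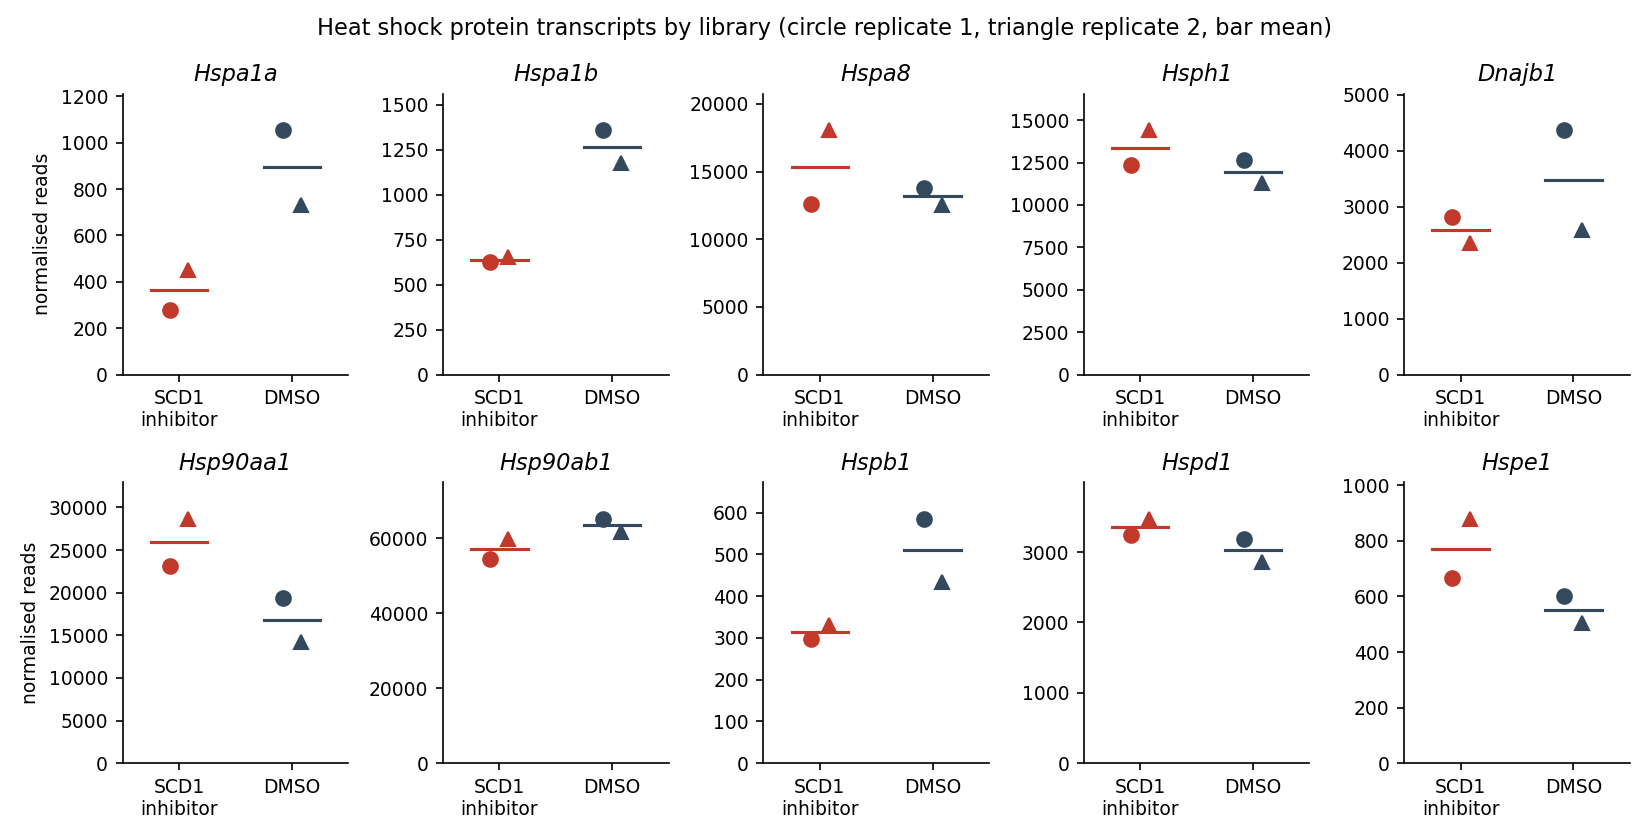
Normalised reads of the 10 heat shock protein genes in each library on linear axes from 0, SCD1 inhibitor (red) left and DMSO (blue) right, with circles for replicate 1, triangles for replicate 2 and bars for group means. The groups do not overlap for 7 genes, of which Hspa1a, Hspa1b, Hspb1 and Hsp90ab1 lie lower with the inhibitor and Hsp90aa1, Hspd1 and Hspe1 higher.

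Hspa8, the constitutive HSP70 of the cytosol, had 12584 and 18054 normalised reads with the SCD1 inhibitor, against 13812 and 12513 with DMSO. SCD1 inhibitor replicate 2 was the highest library and replicate 1 lay between the DMSO libraries, and the log2 fold change was 0.20 ± 0.15 (SE, limma adjusted p = 0.601). Without SCD1 inhibitor replicate 2 it turned to -0.063 (limma adjusted p = 0.974). Per kilobase of exon, Hspa1a and Hspa1b together made up 9.76% and 8.38% of the cytosolic HSP70 transcripts (Hspa1a, Hspa1b and Hspa8) in the inhibitor libraries, against 20.7% and 18.6% in the DMSO libraries. Per kilobase of the longest coding transcript, a length chosen after seeing the data that is much shorter for Hspa8, the shares were 5.68% and 4.85% with the inhibitor, against 12.7% and 11.3% with DMSO. The shares did not overlap by either length, though an exact permutation test of 2 libraries against 2 cannot give a two-sided p below 0.333. The sizes of the shares are uncertain by either length. Other genes hold 73.2% of the 50-base stretches of Hspa8, and how reads with several matches were counted is not known.

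**Figure D2:**
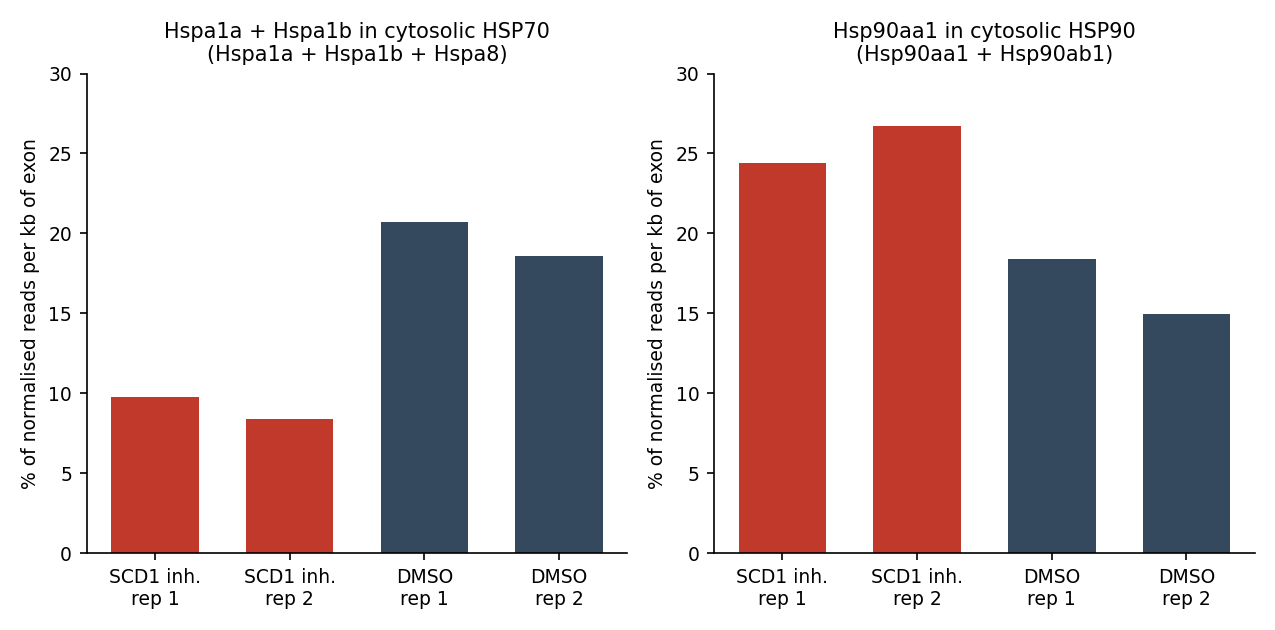
Share of the inducible genes in normalised reads per kilobase of exon, in percent on axes from 0, for each SCD1 inhibitor (red) and DMSO (blue) library. Hspa1a plus Hspa1b made up 8.38% and 9.76% of cytosolic HSP70 with the inhibitor, against 18.6% and 20.7% with DMSO, and Hsp90aa1 made up 24.4% and 26.7% of cytosolic HSP90 with the inhibitor, against 15.0% and 18.4% with DMSO. How reads that match several genes were counted is not known, so the sizes of the shares are uncertain.

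The partners of HSP70 among the 10 genes did not pass. Hsph1 encodes an HSP110, which acts as a nucleotide exchange factor for HSP70. It had 12361 and 14407 normalised reads with the inhibitor, against 12654 and 11276 with DMSO (log2 fold change 0.16 ± 0.12, SE, limma adjusted p = 0.590), and the groups overlapped. Dnajb1 is the J-domain protein that starts the cycle of HSP70 and is itself a target of HSF1. It had 2818 and 2359 reads with the inhibitor, against 4365 and 2581 with DMSO (log2 fold change -0.38 ± 0.20, SE, limma adjusted p = 0.433). DMSO replicate 1 stood far above the other 3 libraries, and the Dnajb1 value was -0.0012 without it. Without DMSO replicate 2 it was -0.75 and passed (limma adjusted p = 0.0103).

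The cytosolic HSP90 genes went in opposite directions, and 1 of them passed. Hsp90aa1 (chromosome 12, 110690605 to 110702728, minus strand) had 23095 and 28675 normalised reads in the SCD1 inhibitor libraries, against 19313 and 14250.1 in the DMSO libraries. Both inhibitor libraries lay above both DMSO libraries, and the log2 fold change was 0.63 ± 0.15 (SE, limma adjusted p = 0.0463). Hsp90ab1, the constitutive form and the most abundant of the 10, had 54573 and 59918 reads with the inhibitor, against 65236 and 61661 with DMSO. These groups did not overlap either, but Hsp90ab1 did not pass (log2 fold change -0.15 ± 0.11, SE, limma adjusted p = 0.593).

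Hsp90aa1 made up 24.4% and 26.7% of cytosolic HSP90 transcripts per kilobase with the inhibitor, against 18.4% and 15.0% with DMSO, without overlap. The size of this share is uncertain, since other genes hold 58.5% of the 50-base stretches of Hsp90aa1 and 4.49% of those of Hsp90ab1. The summed level of both genes did not separate the groups, with 77669 and 88593 normalised reads with the inhibitor, against 84549 and 75911 with DMSO. Of the other HSP90 genes, Hsp90b1 of the endoplasmic reticulum also rose, with 26032 and 29235 reads with the inhibitor, against 19415 and 17444 with DMSO (log2 fold change 0.58 ± 0.11, SE, limma adjusted p = 0.0203). That call ended without SCD1 inhibitor replicate 1 or 2 (adjusted p = 0.198 and 0.512) and after correction for GC content (0.35, adjusted p = 0.201). Trap1, the mitochondrial HSP90, named after its values were seen, had a log2 fold change of -0.36 (limma adjusted p = 0.262).

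Hspb1 encodes HSP25, the mouse counterpart of human HSP27, a small heat shock protein that holds unfolded proteins without ATP. It had 298 and 330.4 normalised reads with the inhibitor, against 586 and 435 with DMSO. Both inhibitor libraries were lower, but Hspb1 did not pass over all genes (log2 fold change -0.64 ± 0.29, SE, limma adjusted p = 0.347). Its unadjusted p of 0.0473 made it the fourth of the 10 under 0.05, where 14.1% of all tested genes were. Of 9 further small heat shock protein genes, 5 reached the floor for testing, 4 of these were negative and none passed limma's test (1 at an unadjusted p under 0.05). Among them Hspb8, a partner of the cochaperone Bag3 in clearing misfolded proteins, had 532 and 536 reads with the inhibitor, against 981 and 841 with DMSO (log2 fold change -0.74 ± 0.22, SE, limma adjusted p = 0.135). Hspb6 had a log2 fold change of -0.51 (limma adjusted p = 0.602).

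Hspd1 and Hspe1 encode HSP60 and HSP10, which together form the folding chamber of the mitochondrial matrix. Hspd1 had 3246 and 3474 normalised reads with the inhibitor, against 3186 and 2860.1 with DMSO (log2 fold change 0.15 ± 0.13, SE, limma adjusted p = 0.660). Hspe1 had 665 and 880.1 reads with the inhibitor, against 600.4 and 504 with DMSO (log2 fold change 0.46 ± 0.24, SE, limma adjusted p = 0.434). For both genes the inhibitor libraries lay above the DMSO libraries, and neither passed. The genes share the promoter printed above, and 112 bases of their exons overlap on opposite strands. Hspe1 made up 26.9% and 31.2% of the pair's transcripts per kilobase of exon with the inhibitor, against 25.2% and 24.0% with DMSO. Per kilobase of the longest coding transcript the shares were 39.1% and 44.2% with the inhibitor, against 37.1% and 35.6% with DMSO. The sizes of these shares are uncertain, since other genes hold 44.8% of the 50-base stretches of Hspd1 and 36.1% of those of Hspe1.

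Without overlap between groups were 7 of the 10 genes, where 44.9% of all tested genes were. The pattern over single libraries split the 10 evenly. DMSO replicate 1 was the highest library for 5 genes (Hspa1a, Hspa1b, Hsp90ab1, Dnajb1 and Hspb1), and SCD1 inhibitor replicate 2 for the other 5 (Hspa8, Hsp90aa1, Hsph1, Hspd1 and Hspe1). The 10 genes together took 0.428% and 0.501% of normalised reads with the inhibitor, against 0.468% and 0.421% with DMSO.

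Per kilobase of exon, the order over all 4 libraries was led by Hsp90ab1, with a mean of 20122 normalised reads per kilobase, followed by Hsp90aa1 (5427) and Hspa8 (3311). Hsph1 had 1744, Hspd1 1208, Dnajb1 946, Hspe1 449, Hspb1 400.0, Hspa1b 340 and Hspa1a 212. Neighbours whose ranges over the libraries overlapped were Hsp90aa1 and Hspa8, Hspd1 and Dnajb1, and each successive pair from Hspe1 to Hspa1a. The levels depend on the length used: per kilobase of the longest coding transcript Hspa8 had 5949, Hsph1 3334 and Hspe1 856. The order of the 10 was the same by that length, but the ranges of Dnajb1 and Hspe1 then overlapped and those of Hspe1 and Hspb1 did not. The order is also uncertain because how reads that match several genes were counted is not known. Other genes hold 73.2% of the 50-base stretches of Hspa8 and 58.5% of those of Hsp90aa1, against 4.49% for Hsp90ab1 and 0% for Hsph1. The lowest read count behind any of these values was 291, for Hspa1a in an inhibitor library, with a counting error of 5.86%.

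The calls depended on the tool and on single libraries. With edgeR on the recovered reads none of the 10 passed (adjusted p = 0.111 for Hspa1a, 0.0797 for Hspa1b and 0.133 for Hsp90aa1; 4 had an unadjusted p under 0.05), where 0.304% of all genes passed and 12.8% had an unadjusted p under 0.05. With DESeq2 the same 3 genes passed (adjusted p = 0.00602 for Hspa1a, 0.00155 for Hspa1b and 0.00101 for Hsp90aa1), where 6.10% of the 8990 genes with an adjusted p did.

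Without SCD1 inhibitor replicate 1 the limma calls of all 3 genes ended, with log2 fold changes of -0.93 for Hspa1a, -0.93 for Hspa1b and 0.79 for Hsp90aa1 (adjusted p = 0.545, 0.410 and 0.221). They ended also without SCD1 inhibitor replicate 2, at -1.57, -0.99 and 0.48 (adjusted p = 0.286, 0.5001 and 0.755). Without DMSO replicate 1 the call of Hspa1a ended (-0.997, adjusted p = 0.101), and without DMSO replicate 2 that of Hsp90aa1 (0.41, adjusted p = 0.0930). A fit without an inhibitor library takes its spread from the DMSO pair alone, which differed more (SD of the log2 difference over all tested genes 0.581) than the inhibitor pair (0.454). Likewise a fit without a DMSO library takes its spread from the inhibitor pair alone. The part of this in which calls ended or stayed was not tested.

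**Figure D3:**
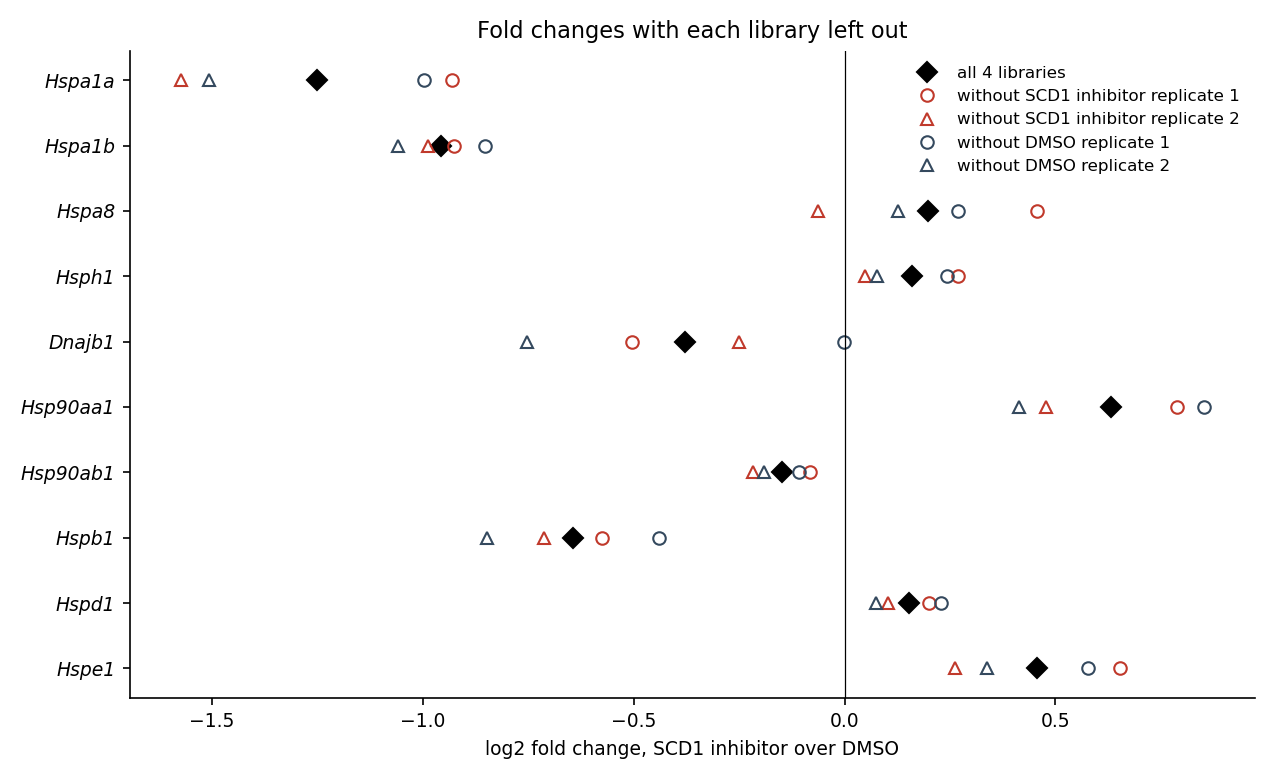
Log2 fold change of each heat shock protein gene (SCD1 inhibitor over DMSO) with all 4 libraries (black diamond) and with each library left out (open symbols). Hspa1a, Hspa1b and Hspb1 stay below 0 and Hsp90aa1 and Hspe1 above 0 in all 5 fits shown, while Hspa8 crosses 0 without SCD1 inhibitor replicate 2.

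Fold changes moved with the GC content of the transcripts, in these genes and over the whole table. In 10 bins of tested genes, the median log2 fold change was 0.32 in the bin of lowest GC content (31.0 to 41.65%) and -0.14 in the bin of highest (57.9 to 82.2%). The 5 heat shock genes with a positive log2 fold change had transcripts of 43.7 to 47.3% GC, and the 5 with a negative one had 51.0 to 61.7%, without overlap. Hsp90aa1 had the lowest GC content of the 10 and the highest log2 fold change, while Hspa1a, with the lowest, had 58.9% GC and Hspb1 61.7%.

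After the trend of each library on GC content was taken out, an alternative chosen after seeing the data, the log2 fold changes were -1.11 for Hspa1a, -0.81 for Hspa1b and 0.46 for Hsp90aa1. None of the 3 then passed limma's test (adjusted p = 0.150, 0.112 and 0.201), nor did any other of the 10 genes. The sum of Hspa1a and Hspa1b was -0.94 and still passed (limma adjusted p = 0.0473). All 10 genes kept their sign after this correction.

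**Figure D4:**
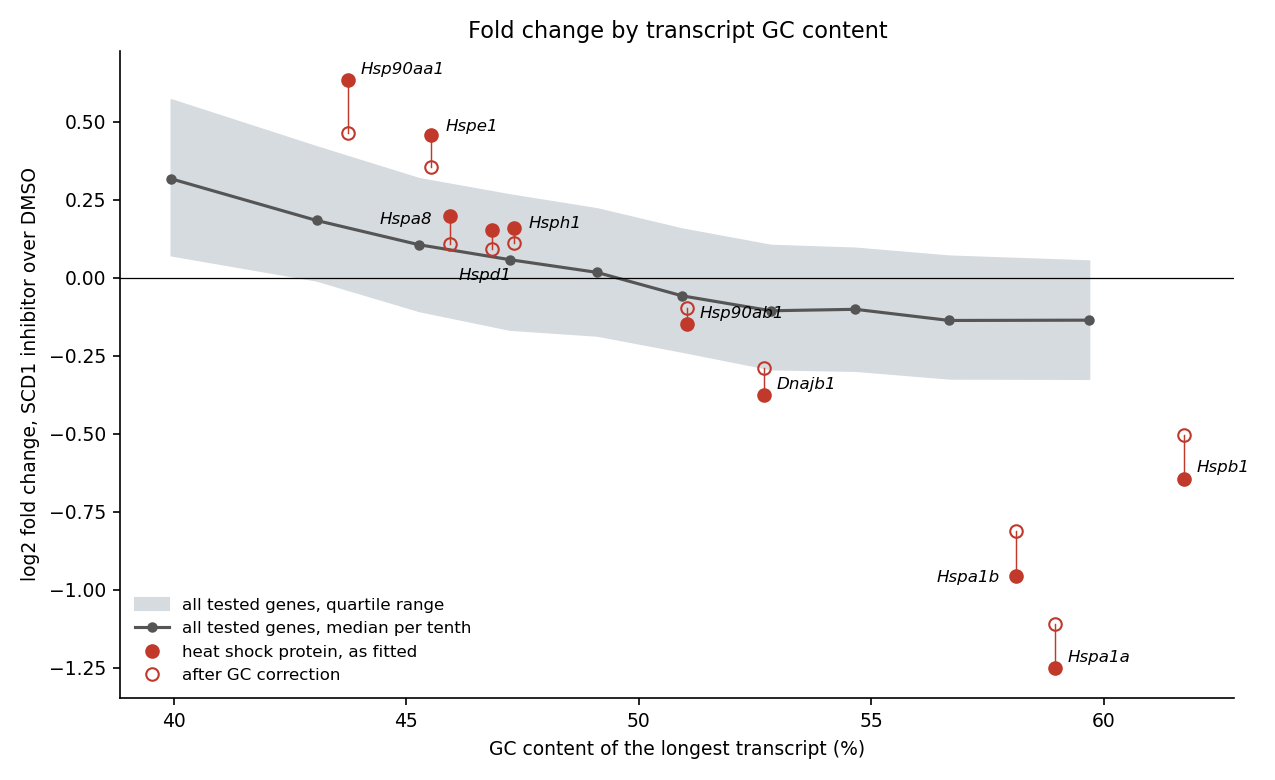
Log2 fold change (SCD1 inhibitor over DMSO) against GC content of the longest transcript in percent, with the median and quartile range of all tested genes in 10 bins (grey) and the 10 heat shock genes as fitted (filled) and after GC correction (open). Hspa1a, Hspa1b and Hspb1 lie below the quartile range of uncorrected values in their bin, and Hsp90aa1 and Hspe1 above it, both as fitted and after correction. Hspb1 stands to the right of the drawn range.

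The rest of the chaperone network was described by 8 lists, chosen with earlier results of these data known. Of their 95 tested genes, 50 were positive and 45 negative, and 1 rose and 1 fell, beside 1.79% of all tested genes that passed in either direction. The median log2 fold change was 0.017. The list of other HSP70 and HSP110 proteins had 5 of 8 genes positive, with a median of 0.19, and that of other mitochondrial chaperones and proteases 7 of 14, with a median of -0.041. With edgeR none of these lists had a call, and with DESeq2, which called 6.10% of genes, the calls were Hspa4l, Lonp1, Ahsa2 and Fkbp4. Counts at an unadjusted p under 0.05 in these lists stand beside 14.1% of all tested genes. The gene that rose was Hspa4l, an HSP110 relative, with 15150.0 and 15677 normalised reads with the inhibitor, against 11804 and 9131 with DMSO (log2 fold change 0.57 ± 0.13, SE, limma adjusted p = 0.0399). Its value was 0.25 after the GC correction (limma adjusted p = 0.422), and without DMSO replicate 2 it was 0.38 (limma adjusted p = 0.0710). The gene that fell was Lonp1, a protease of the mitochondrial matrix, with 1618 and 1519 reads with the inhibitor, against 2544 and 2355 with DMSO (log2 fold change -0.63 ± 0.15, SE, limma adjusted p = 0.0473). Both calls ended without either inhibitor library, with limma adjusted p from 0.410 to 0.666, and with edgeR (adjusted p = 0.116 for Hspa4l and 0.0996 for Lonp1).

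The transcript of HSF1 itself did not differ beyond its spread. The amount and activity of the HSF1 protein were not measured. Hsf1 had 1626 normalised reads in each inhibitor library, against 1468 and 1872 with DMSO (log2 fold change -0.027 ± 0.17, SE, limma adjusted p = 0.960). Of 12 tested genes on the list of heat shock factors and other HSF1 targets, 6 were positive and 6 negative and none passed limma's test (1 at an unadjusted p under 0.05). Mrpl18, a protein of the mitochondrial ribosome, had a log2 fold change of 0.50 (limma adjusted p = 0.460).

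Among 16 further J-domain proteins, 12 were positive and none passed limma's test (2 at an unadjusted p under 0.05), with a median of 0.096. Dnajc13, an endosomal protein, had 0.35 and Dnajc2, which acts at the ribosome, 0.46 (limma adjusted p = 0.338 and 0.347). Of 9 exchange and partner factors of HSP70, 7 were negative and none passed limma's test (1 at an unadjusted p under 0.05), with a median of -0.18. Bag3, an exchange factor and HSF1 target, had 1052 and 1177 reads with the inhibitor, against 1511 and 1492.5 with DMSO (log2 fold change -0.42 ± 0.17, SE, limma adjusted p = 0.285). St13, which stabilises the client-bound form of HSP70, had 0.26 (limma adjusted p = 0.373).

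Of 18 HSP90 cochaperones 12 were positive and none passed limma's test (5 at an unadjusted p under 0.05). Ahsa2, a relative of the HSP90 activator Ahsa1, had 1619 and 1857 reads with the inhibitor, against 1253 and 947 with DMSO (log2 fold change 0.66 ± 0.18, SE, limma adjusted p = 0.106). Fkbp4, an immunophilin of steroid receptor complexes, had -0.32 (limma adjusted p = 0.182). The TRiC chaperonin, which folds actin and tubulin, and prefoldin had 9 of 14 genes negative and none passed limma's test (1 at an unadjusted p under 0.05), with a median of -0.15. Its genes of smallest p were Cct7 and Cct6a, both at -0.24 (limma adjusted p = 0.347 and 0.449).

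**Figure D5:**
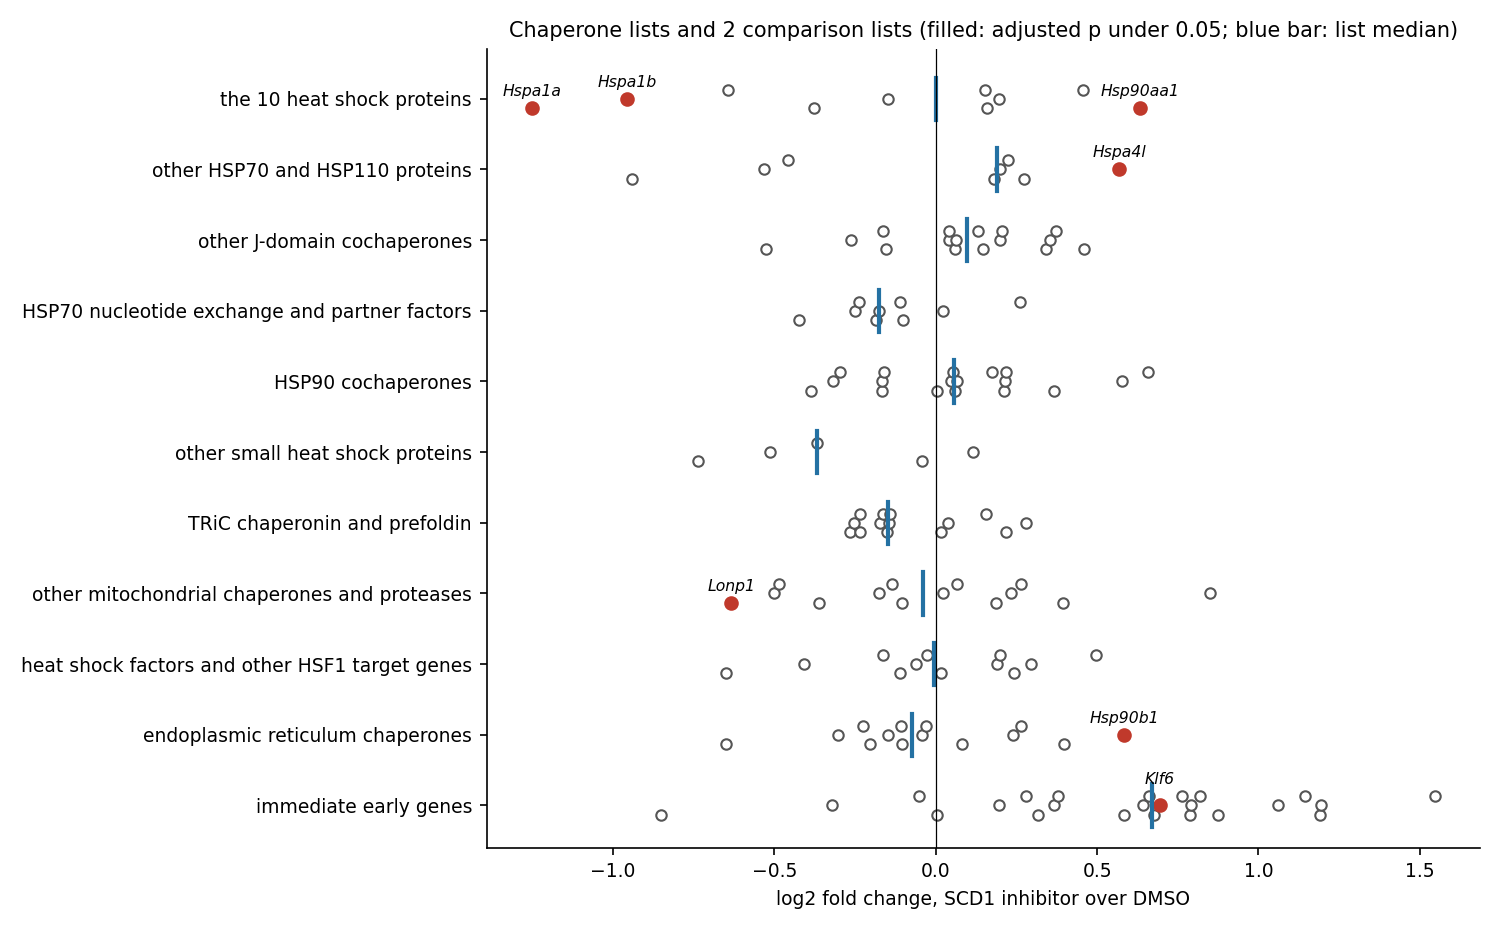
Log2 fold change (SCD1 inhibitor over DMSO) of each tested gene of the 10 heat shock proteins, 8 further chaperone lists and 2 comparison lists, with filled points for limma adjusted p under 0.05 and blue bars for list medians. The immediate early genes have the median furthest from 0 (0.67), and the 10 heat shock proteins spread from -1.25 to 0.63 around a median near 0.

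Immediate early genes, which respond to stress, growth signals and handling of cells, were given beside the heat shock genes because both can change while tissue is taken apart. Of 24 tested, 21 were positive, with a median log2 fold change of 0.67. In limma's test 1 rose, where 1.36% of all tested genes did, and none fell, where 0.427% did. At an unadjusted p under 0.05 were 11 of the 24, where 14.1% of all tested genes were. The 25 on the list summed to 204830.0 and 153039 normalised reads with the inhibitor, against 165882 and 67947 with DMSO, so that DMSO replicate 2 was lowest and DMSO replicate 1 lay between the inhibitor libraries. Klf6 rose (log2 fold change 0.70 ± 0.15, SE, limma adjusted p = 0.0315; 0.381 and 0.544 without SCD1 inhibitor replicate 1 and 2) and Klf4 had -0.85 (limma adjusted p = 0.0774). The part of this in the heat shock values was not tested. Of 14 chaperones of the endoplasmic reticulum, 5 were positive and 9 negative, and Hsp90b1 was the 1 that passed limma's test (4 at an unadjusted p under 0.05). Dnajc3, a J-domain protein of that compartment, had 0.40 (limma adjusted p = 0.114). With edgeR neither of these 2 lists had a call. With DESeq2, which called 6.10% of genes, the calls were Klf4 and Klf6 in the first list and Calr, Dnajc3 and Hsp90b1 in the second.

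The labelled cell type was checked on its markers. Epcam had 5026 to 6732 normalised reads, and Cdh1, the epithelial cadherin, 40262 to 47179. Scgb1a1, a marker of club cells, had 163459 to 332447 reads and Sftpc, a marker of alveolar type 2 cells, 100831 to 191501. By these markers RNA of alveolar cells was present beside that of airway cells. The leukocyte marker Ptprc had 48.7 to 241 reads, S100a8 and S100a9 were at 0 in every library, and the 12 leukocyte markers summed to 3180.0 and 2536 with the inhibitor, against 3331 and 5061 with DMSO. The 8 endothelial markers summed to 4870.3 and 6628 with the inhibitor, against 4561 and 13656 with DMSO.

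The mean profile of the 10 genes, as log2 values centred on their 4-library mean, was -0.20 and 0.024 in the inhibitor libraries and 0.24 and -0.066 in the DMSO libraries. The other genes closest to it over these 4 libraries were Panx1, Klhl38, Itpripl2, Kat2b and Dnajc11, at Euclidean distances of 0.022 to 0.049. None of these 5 passed limma's test (adjusted p from 0.701 to 0.860). The mean profile joins genes that went in opposite directions and counts the near-identical Hspa1a and Hspa1b separately. Closeness to it is therefore not likeness to each of the 10 genes.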

How the data were processed

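The authors' deposited signal values give 25124 gene symbols in 4 libraries. Every value is a whole multiple, to within 0.01, of a step that is constant in its library. Dividing by the step gives read counts, and the step's inverse (0.953 to 1.05 over the libraries) equals the size factor that the median-of-ratios method computes from those counts. In DMSO replicate 2 the step (0.991) is close to 1, so its counts rest more on that size factor than on the spacing of its values. HOMER, DESeq2 and the build mm10 are listed in the submitters' processing notes, with no roles or versions. The sources used here do not give the aligner, the read length, the handling of reads with several matches or the strand setting of the counting. The kit marks strand, per the labels' protocols. Other genes' transcripts hold 73.2% of the 50-base stretches of Hspa8 and 58.5% of those of Hsp90aa1. They also hold 51.65% of those of Hspb1, 44.8% of Hspd1 and 36.1% of Hspe1. The reads of these genes are therefore uncertain.

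Tests used log2(value + 25.8), a pseudocount of 1 CPM, and fold changes are on that scale. The 13810 genes averaging 25.8 or more entered limma 3.58.1 (R 4.3.3), with group as the term, a trend of variance on level and Benjamini-Hochberg adjustment over all of them. Recovered reads were tested with edgeR 4.0.16 and DESeq2 1.42.0. The tests were tried on simulated counts with a fixed dispersion and no GC trend, which cannot show whether the calls reported here hold. Positions, exon lengths and GC content (98.8% of tested genes) come from GENCODE M21 on GRCm38. Counting errors cover counting only, since PCR copies are not independent molecules.

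The 10 genes and all lists were chosen with earlier results of these data known. The genes named were the 10, Hsf1, and from each chaperone list up to 4 that passed or else the 2 of smallest p, with the 2 of smallest p from the lists of endoplasmic reticulum chaperones and immediate early genes and the 5 genes of closest profile. A gene that this rule names is not reported here. Promoters with an element of 3 units were printed, and those of Hspa1a and Hspa1b were added after their values were seen. Alternatives were the replicate block, other pseudocounts, floors, scalings and tests, each library left out and GC correction. Figures were made with Python 3.11.15 and matplotlib 3.10.9.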

Additional observations from a re-analysis of the deposited data

How the results depend on the processing

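Of the 10 heat shock genes, only Hspa8 changed sign under any of the 16 alternatives (-0.063 to 0.46 with a library left out). The calls depended on the setting. Genes called over all tested genes, 247 as reported, were 548 with DESeq2, 42 with edgeR (1768 at an unadjusted p under 0.05), 64 with no floor, 0 without the intensity trend (1423 at an unadjusted p under 0.05), 72 with GC correction, 128 with GC and length correction, and 5 to 795 with a library left out. Heat shock genes called, 3 as reported, were 0 with edgeR (4 at an unadjusted p under 0.05), and 0 with no floor, without the trend and with either GC correction (3 each). They were 1 with the smaller pseudocount, with TMM and with scaling by library totals, and 0 to 3 with a library left out (0 without SCD1 inhibitor replicate 1 or 2, with 4 and 3 at an unadjusted p under 0.05). Hspa1a plus Hspa1b passed in 12 of 16 alternatives and did not with edgeR (-1.11, adjusted p = 0.0523), without the trend (-1.09, adjusted p = 0.454) or without an inhibitor library (-1.25 to -0.92 over all 4 libraries left out). Hspa1b passed in 9 of 16, and Hspa1a and Hsp90aa1 in 5 of 16 each. The median of the 10 was -0.14 to 0.11 with a library left out. Hsf1 was 0.071 with GC correction, 0.075 with GC and length correction and -0.20 to 0.15 with a library left out. St13 was -0.031 and -0.063 with the GC corrections. Without a floor 17207 genes enter the adjustment; the cause of the other changes was not tested. With the replicate number as a block, 674 genes passed over all and 3 of the 10, and Hspa1a plus Hspa1b had an adjusted p of 2.27e-06. The samples share only a number here, since no label says what they pair and deviations of replicate 1 libraries from their group means correlated at 0.073 over genes. The lowest count behind the 10 genes was 291 reads.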

Other observations

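Over the 10 heat shock genes, the 8 further chaperone lists and the 2 comparison lists, 7 genes passed limma's test over all genes. The 4 that rose, Hsp90aa1, Hspa4l, Hsp90b1 and Klf6, had transcripts of 39.5 to 43.7% GC, and the 3 that fell, Hspa1a, Hspa1b and Lonp1, had 56.5 to 58.9%. After the GC correction the log2 fold changes were 0.46, 0.25, 0.35 and 0.48 for the 4 that rose and -1.11, -0.81 and -0.50 for the 3 that fell, and none of the 7 passed.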
